A study of Mus musculus with 16 samples.

Results

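Poly(A) RNA of proliferating C2C12 cells that carry a MUNC vector was compared between the 2 genotype labels of the study. The comparison uses 4 of the 16 libraries, 2 labelled MYOD-/- and 2 labelled WT, chosen by their labels for genotype, vector and growth condition. C2C12 is a mouse myoblast line, given in the labels with strain background C57BL/6, skeletal muscle as tissue source and an age of post natal day 21. It divides in growth medium (GM) and forms multinucleated muscle fibres after a change of medium. The WT-labelled cells were stably transfected with a vector that carries the spliced MUNC form. The MYOD-/- cells were made by CRISPR-Cas9 editing with a screen of single cells, and the same vector was introduced afterwards. The number of clones behind each line and the edited part of the gene could not be learned from the sources used. The other 12 libraries hold empty-vector cells of both labels and the same 4 lines after differentiation (DM3 in the series' design). Of these, the 4 proliferating empty-vector libraries and the 4 differentiating MUNC libraries serve below as reference for the difference between labels. Whether replicates come from separate cultures is not stated, and the p-values below therefore reflect the variation among these libraries alone, which could be technical.

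MyoD, the product of Myod1, is a basic helix-loop-helix transcription factor that binds the E-box sequence CANNTG and starts the muscle programme together with its relatives Myf5, myogenin and Mrf4. Id proteins and Notch signalling hold that programme back in dividing myoblasts. MUNC is a noncoding RNA transcribed upstream of Myod1, from the region of a distal enhancer, and has been described as promoting muscle gene expression. In proliferating myoblasts MyoD and Myf5 are made, while myogenin, sarcomere proteins and fusion proteins appear on differentiation.

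Levels are TMM-scaled CPM, counts expressed relative to the scaled size of their library and comparable between libraries but not between genes of unequal length, given for replicate 1 and then replicate 2 of a group. Differences are log2 values, as MYOD-/- minus WT label, from edgeR's quasi-likelihood fit to all 16 libraries. The standard error (SE) given with each is the size of the difference divided by the square root of the test's F statistic. For genes near 0 counts the size of the difference, and with it the SE, depends on the prior count of the fit. A gene passed the test at a Benjamini-Hochberg adjusted p under 0.05 over the 14972 genes tested. The 4 libraries had between 58521830 and 64018000 estimated counts, against 35832002 to 107732971 in the series. In both genotypes replicate 2 stood apart from replicate 1. The splicing factor gene Zrsr1 took 5.51% and 8.21% of all counts in the replicate 2 libraries and 0.0135% and 0.00877% in those of replicate 1. At least 4-fold differences between the replicate numbers under both labels were found for 28 genes lower and 10 genes higher in replicate 2. The imprinted noncoding RNA H19, for example, was at 758 and 37.8 CPM under the WT label and at 744 and 3.69 CPM under the MYOD-/- label. Cdh15, the M-cadherin of satellite cells and myoblasts, was at 80.9 and 11.1 and 79.4 and 1.33 CPM. For these 2 genes the labels were at like levels in replicate 1, and the MYOD-/- library was the lower one in replicate 2. The spread between replicates was far larger than the difference between labels within replicate 1.

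The transcript of the targeted gene did not follow the genotype label. Myod1 was at 3.72 and 4.06 CPM in the WT-labelled libraries and at 8.17 and 4.18 CPM in the MYOD-/- libraries. Both groups were low, the MYOD-/- group was not the lower one, and the difference did not pass the test (log2 difference 0.67 ± 0.55, adjusted p = 0.508). These counts would not show an edit that keeps most of the transcript. The groups are therefore named by their labels throughout, and every direction below follows those labels, which the targeted gene does not bear out. In the names of libraries below, knockout is short for the MYOD-/- label and states nothing about the gene. In the empty-vector cells Myod1 stood at 0.291 and 0.0191 CPM under the WT label and at 13.9 and 11.9 CPM under the MYOD-/- label. The difference between labels was thus another one with the empty vector (interaction of genotype and vector -5.62 ± 0.91, adjusted p = 0.00491). This call held without any 1 of the 8 libraries but not with only these 8 in the fit (0.0599).

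MUNC, annotated as Gm45923, was far more abundant in the WT-labelled libraries, at 1821 and 2225 CPM, than in the MYOD-/- libraries, at 132 and 106 CPM. All 4 libraries lay above those with the empty vector, which held 11 and 1.49 CPM (WT label) and 12.4 and 1.3 CPM (MYOD-/- label). The groups compared thus differ in the amount of the transfected RNA as well as in genotype label. They also differ in cell line, since the MUNC cells of each label are a single line. The part of each in any difference below cannot be told apart. The label difference of MUNC itself missed the threshold in the fit to all libraries (log2 difference -4.09 ± 1.23, adjusted p = 0.0594), in which the empty-vector replicates with their unequal levels add to the spread. It passed in the fit to the 4 libraries alone (adjusted p = 0.0479), with DESeq2 (0.00321) and without the filter on low counts (0.0336). It did not pass with the size factors of DESeq2 in edgeR (0.0617), with limma at pseudocounts of 1 and 0.1 (0.0778 and 0.0774) or in any fit without 1 of the 4 libraries (0.115 to 0.226). The gene lies on chromosome 7 (GRCm38, 46371403 to 46372492), 3981 bases before Myod1 (46376474 to 46379092), on the same chromosome and without overlap.

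The 250 bases before the annotated start of Gm45923 are printed to show the region from which the cells' own MUNC is transcribed, with E-boxes (CANNTG, a motif that reads the same on both strands) in capitals. They span chr7:46371153-46371402 on the plus strand and come from the RefSeq promoter table for GRCm38.p6.
Gm45923: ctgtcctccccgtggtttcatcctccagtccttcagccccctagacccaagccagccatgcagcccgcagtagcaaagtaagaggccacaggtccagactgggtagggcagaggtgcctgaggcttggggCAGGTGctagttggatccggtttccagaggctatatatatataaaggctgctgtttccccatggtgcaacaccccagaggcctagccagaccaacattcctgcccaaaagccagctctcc
The window holds 1 E-box. Of 32851 windows of this length in the table, 66.2% hold at least 1, with a median of 1, so the match describes the sequence and says nothing about binding.

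**Figure D1:**
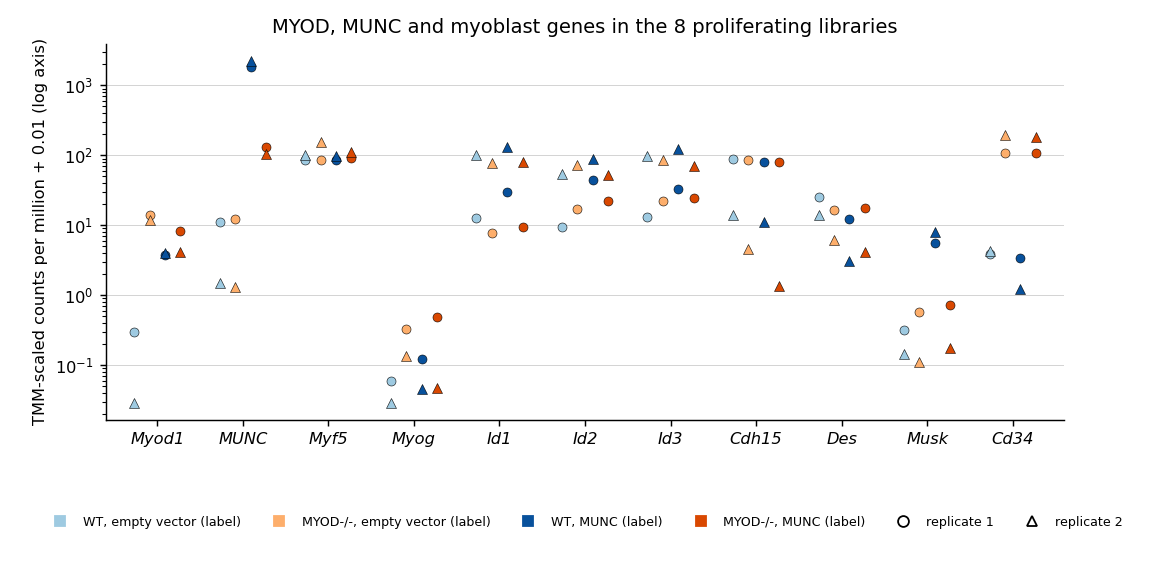
Levels of Myod1, MUNC (Gm45923) and genes of myoblasts in the 8 proliferating libraries, as TMM-scaled CPM plus 0.01 on a log axis. Colours are the 4 groups by label, circles replicate 1 and triangles replicate 2. Myod1 is lowest in the WT-labelled empty-vector libraries, MUNC is highest in the WT-labelled MUNC libraries, and Id1 and Des differ more between replicates than between labels. In the MUNC libraries Cdh15 is at like levels under both labels in replicate 1 and lower under the MYOD-/- label in replicate 2.

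Across the transcriptome, 1496 of 14972 genes differed between the labels in proliferating MUNC cells (9.99%), 745 higher (4.98%) and 751 lower (5.02%) under the MYOD-/- label. The genes that were higher differed by more. Their median log2 difference was 2.07 and 385 of them exceeded 2, against a median of -0.92 and 158 genes beyond that size among those that were lower. Of the higher genes 135, and of the lower genes 46, stayed below 1 CPM in all 4 libraries. The median over all tested genes was 0.02. In a bulk RNA measurement fewer cells of a type and less RNA per cell cannot be told apart. The number of calls rests on the spread borrowed from the other groups. With only the 4 libraries of the comparison in the fit, 41 genes were higher and 29 lower, and 69 of the 1496 calls remained. Leaving out 1 library gave 840 calls without WT replicate 1, 607 without WT replicate 2, 1573 without knockout replicate 1 and 852 without knockout replicate 2, and 473 of the 1496 calls held in each of these 4 fits. A call is described below as held when it passed in all 4 of them.

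Among the genes that were higher, several were nearly silent under the WT label and clearly expressed under the MYOD-/- label. Igfbp2, a secreted binding protein of insulin-like growth factors, was at 0.0634 and 0 CPM under the WT label and 130.2 and 76.6 CPM under the MYOD-/- label. The WT value rests on 4 counts in all (log2 difference 11.50 ± 1.24, adjusted p = 0.000229). Stmn4, a microtubule-destabilising protein of the stathmin family, was at 0.0317 and 0.0361 and 28.4 and 24.2 CPM (9.52 ± 0.87, adjusted p = 7.54e-05), from 4 counts under the WT label. Zfp518b, a zinc finger protein, was at 0.095 and 0.0181 and 11 and 10.6 CPM (7.48 ± 0.67, adjusted p = 6.91e-05). In each of these genes both MYOD-/- libraries lay far above both WT libraries.

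The receptor tyrosine phosphatase Ptprd was at 0.919 and 0.325 CPM under the WT label and 56.5 and 40.5 CPM under the MYOD-/- label (6.26 ± 0.56, adjusted p = 6.87e-05). Ppargc1a, the PGC-1alpha coactivator of mitochondrial and oxidative fibre genes, was at 0.0792 and 0.181 and 11.1 and 22.6 CPM (7.03 ± 0.73, adjusted p = 0.000175). Nbea, a scaffold protein of vesicle traffic, was at 0.0634 and 0.0542 and 6.02 and 10.8 CPM (7.11 ± 0.81, adjusted p = 0.00034). These 6 genes are among 19 printed here whose calls also passed with only the 4 libraries in the fit. Cd34, a sialomucin on quiescent satellite cells and other progenitors, was at 3.45 and 1.21 CPM and 109 and 182 CPM (5.96 ± 0.67, adjusted p = 0.000325), a held call. The lipid transporter Mfsd2a, chosen after its values were seen, was at 0.142 and 0.0903 and 7.42 and 6.04 CPM (5.82 ± 0.46, adjusted p = 3.75e-05).

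Other large positive differences rested on a single MYOD-/- library. Pdlim3, a Z-disc LIM protein, was at 0.0475 and 0.0361 CPM and then 33.9 and 0.274 CPM, and its call (0.0294) was lost without WT replicate 1 (0.158), WT replicate 2 (0.173) or knockout replicate 1 (0.487). The neurotrophin receptor Ngfr was at 0 and 0.0362 and 0.107 and 11.7 CPM, from 2 counts under the WT label and 650 under the MYOD-/- label (ratio 320, 95% exact counting interval 88.3 to 2650). Its call was lost without WT replicate 1 (0.176), WT replicate 2 (0.151) or knockout replicate 2 (0.524). Atp13a4, a cation-transporting ATPase, was at 0 and 0.0789 and 0.673 and 13.1 CPM, and its call was lost without WT replicate 1 (0.102), WT replicate 2 (0.0754) or knockout replicate 2 (0.0928). Clec4d, a C-type lectin, was at 0.0317 and 0.0903 and 0.428 and 20.1 CPM, and its call was lost without WT replicate 1 (0.214), WT replicate 2 (0.195) or knockout replicate 2 (0.41).

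Among the genes that were lower, Ror2, a receptor for Wnt5a, was at 4.7 and 6.5 CPM under the WT label and 0 and 0.0182 CPM under the MYOD-/- label. This is 657 counts against 1, a ratio of 667 with a 95% exact counting interval of 119 to 26400. Lpar3, a receptor for lysophosphatidic acid, was at 11.4 and 5.12 and 0.0406 and 0.0952 CPM (log2 difference -6.90 ± 0.79, adjusted p = 0.00034). The sodium-proton exchanger Slc9a2 was at 5.94 and 5.87 and 0.0916 and 0.073 CPM (-6.12 ± 0.49, adjusted p = 4.16e-05), and the potassium channel Kcnk5 at 7.78 and 5.82 and 0.153 and 0.0548 CPM (-5.97 ± 0.45, adjusted p = 2.86e-05). For all 4 genes both MYOD-/- libraries were under 0.2 CPM.

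Gm2a, the lysosomal activator of ganglioside breakdown, was at 6.51 and 6.16 CPM under the WT label and 0.199 and 0.11 CPM under the MYOD-/- label (-5.32 ± 0.45, adjusted p = 4.62e-05). The Polycomb-associated Sfmbt2 was at 5.81 and 8.44 and 0.306 and 0.329 CPM (-4.48 ± 0.34, adjusted p = 2.86e-05). The ephrin receptor Epha7 was at 7.3 and 5.34 and 0.284 and 0.21 CPM (-4.62 ± 0.42, adjusted p = 7.57e-05), and the membrane protein Tmem45a at 83.1 and 107 and 6.15 and 3.18 CPM (-4.34 ± 0.34, adjusted p = 3.65e-05). The calls of these 4 genes, and those of Ror2, Lpar3, Slc9a2 and Kcnk5, held in every fit that left out 1 library and in the fit to the 4 libraries alone. Rab3b, a GTPase of exocytosis (-6.03 ± 0.90), Chst7, a sulfotransferase of proteoglycans (-5.40 ± 0.49), and Galnt18, of the mucin-type glycosylation family (-4.55 ± 0.73), held their calls too, but not in the fit to the 4 libraries alone (adjusted p = 0.0955, 0.0506 and 0.149).

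**Figure D2:**
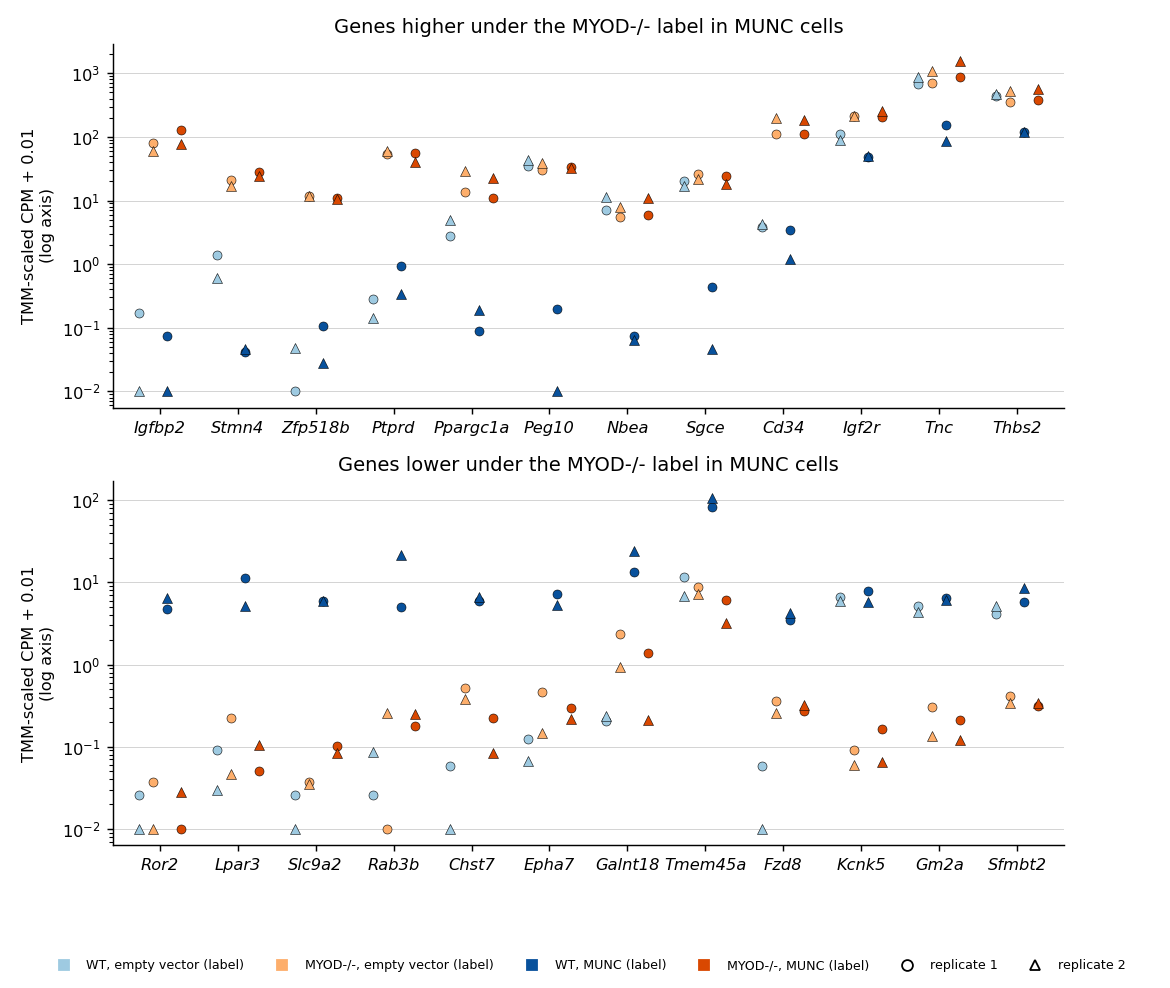
Levels of 12 genes higher (top) and 12 genes lower (bottom) under the MYOD-/- label in proliferating MUNC cells, in the 8 proliferating libraries, as TMM-scaled CPM plus 0.01 on a log axis. Colours are the groups by label, circles replicate 1 and triangles replicate 2. Igfbp2, Zfp518b and Kcnk5 separate by genotype label with either vector, whereas Peg10, Nbea, Lpar3 and Epha7 stand apart in the WT-labelled MUNC libraries.

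The windows before the start sites of 4 of these genes are printed because 2 of the genes were nearly silent under the WT label (Igfbp2, Nbea) and 2 under the MYOD-/- label (Lpar3, Kcnk5). Each is 250 bases from the RefSeq promoter table for GRCm38.p6, 5′ to 3′ on the gene's strand, with E-boxes in capitals. The windows are chr1:72824230-72824479 (plus, the first of 2 listed starts), chr3:56183702-56183951 (minus), chr3:146220711-146220960 (plus) and chr14:20181783-20182032 (minus). A window was found for 100 of the 141 genes whose differences are given here.
Igfbp2: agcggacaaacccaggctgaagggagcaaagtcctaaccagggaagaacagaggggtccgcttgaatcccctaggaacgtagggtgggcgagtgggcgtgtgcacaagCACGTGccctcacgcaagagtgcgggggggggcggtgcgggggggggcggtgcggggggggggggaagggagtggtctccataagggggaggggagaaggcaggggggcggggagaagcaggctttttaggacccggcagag
Nbea: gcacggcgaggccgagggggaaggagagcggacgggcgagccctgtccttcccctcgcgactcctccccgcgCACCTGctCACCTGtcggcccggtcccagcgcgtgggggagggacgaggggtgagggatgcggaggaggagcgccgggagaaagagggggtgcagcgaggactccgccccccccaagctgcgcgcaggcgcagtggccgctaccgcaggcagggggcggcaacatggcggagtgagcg
Lpar3: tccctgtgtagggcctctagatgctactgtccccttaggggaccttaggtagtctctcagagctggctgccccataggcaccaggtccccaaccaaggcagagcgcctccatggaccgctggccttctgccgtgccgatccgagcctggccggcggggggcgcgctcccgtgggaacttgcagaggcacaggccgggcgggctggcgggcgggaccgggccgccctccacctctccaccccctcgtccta
Kcnk5: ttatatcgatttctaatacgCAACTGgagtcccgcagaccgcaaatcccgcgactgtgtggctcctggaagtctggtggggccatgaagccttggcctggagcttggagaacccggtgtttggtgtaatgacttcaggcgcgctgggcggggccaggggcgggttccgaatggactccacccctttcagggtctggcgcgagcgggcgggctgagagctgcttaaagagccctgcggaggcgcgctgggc
E-boxes number 1 in Igfbp2, 2 in Nbea, 0 in Lpar3 and 1 in Kcnk5, against a median of 1 over all windows. CG dinucleotides number 14, 28, 17 and 19 in the same order, against a median of 6. At least as many CG are found in 29.4%, 7.61%, 23.5% and 19.7% of all windows.

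None of the other myogenic regulators passed the main test between the labels. Over all 14972 tested genes 4.98% were higher and 5.02% lower, which is the reference for the counts of each list below. A count near these shares is not a result about a list. Of the 25 regulators and cofactors, 18 were tested, 0 passed in the main test with edgeR, and the median difference was 0.16. At an unadjusted p under 0.05 there were 2 higher and 0 lower, and 0 passed with DESeq2 and 1, Myf6, with limma. Myf5, the factor that marks committed myoblasts, was at 84.7 and 97 and 90.8 and 111 CPM (0.15 ± 0.24, adjusted p = 0.747), with overlapping groups. Myog, the factor of terminal differentiation, stayed at 0.111 and 0.0361 and 0.473 and 0.0365 CPM, and Myf6, which encodes Mrf4, at 0.174 and 0.0722 and 0.321 and 0.42 CPM. Myog did not pass, but did without knockout replicate 2 (adjusted p = 0.0244). Myf6 missed the threshold narrowly (1.55 ± 0.45, adjusted p = 0.0517), passed without WT replicate 1 (0.0475) and with limma at pseudocounts of 1 and 0.1 (0.0462 and 0.035), and had an adjusted p of up to 0.332 under the other alternatives.

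Of the 23 tested inhibitors of myogenesis 2 were higher and 1 lower, with a median of -0.16. Dll1, a Notch ligand, was at 0.713 and 0.524 and 1.99 and 2.85 CPM (1.96 ± 0.39, adjusted p = 0.009), a call lost without WT replicate 2 (0.0862). Nrarp, a feedback inhibitor of Notch, was higher at low level (1.97 ± 0.41), a call lost without WT replicate 1 (0.0675), WT replicate 2 (0.111) or knockout replicate 2 (0.0614). Jag2, another Notch ligand, was lower, at 29.3 and 34.3 and 11.4 and 20.3 CPM (-1.01 ± 0.28), a call lost without WT replicate 1 (0.0894), WT replicate 2 (0.194) or knockout replicate 1 (0.167). The Id genes, which encode dominant-negative partners of the myogenic factors, differed more by replicate than by label. Id1 was at 29.9 and 133 and 9.56 and 81.2 CPM, Id2 at 45 and 88.8 and 21.9 and 52.4 CPM, and Id3 at 32.8 and 122 and 24.4 and 69.97 CPM. In all 3 the replicate 2 library was the higher one under both labels, and the groups overlapped.

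Satellite and reserve cell markers gave 1 higher and 3 lower of 18 tested (median -0.14). Cd34 was the higher one. Musk, the receptor kinase that organises the neuromuscular synapse, was at 5.64 and 7.95 CPM under the WT label and 0.718 and 0.164 CPM under the MYOD-/- label (log2 difference -3.91 ± 0.70, adjusted p = 0.00519), a held call. Fst, the activin and myostatin antagonist follistatin, was at 5.18 and 18.6 and 2.46 and 1.02 CPM (-2.77 ± 0.67), a call lost without WT replicate 2 (0.216) or knockout replicate 2 (0.14). Sdc4, a heparan sulfate proteoglycan of satellite cells, was at 295 and 227 and 187 and 148 CPM (-0.64 ± 0.17), a call lost without WT replicate 1 (0.257) or knockout replicate 2 (0.222).

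The sarcomere genes that passed with edgeR were higher under the MYOD-/- label. The summed level of the list overlapped, at 3026 and 3913 CPM under the WT label and 3721 and 3149 CPM under the MYOD-/- label. Of 48 tested, 6 were higher and 0 lower, with a median of 0.84 (0.83 with genes at 0 counts at their bound) against 0.02 over all genes. The 0 lower ones are those of edgeR. At an unadjusted p under 0.05 there were 14 higher and 2 lower, DESeq2 called 9 higher and 2 lower, and limma on log2(TPM + 1) called 1 higher and 0 lower. Xirp1, an actin-binding repeat protein of the intercalated disc and myotendinous junction, was at 0.396 and 0.361 and 9.87 and 21 CPM (log2 difference 5.34 ± 0.61, adjusted p = 0.00034). Its relative Xirp2 was at 0.903 and 0.361 and 4.73 and 6.75 CPM (3.17 ± 0.45), and Tmod1, which caps thin filaments, at 0.196 and 0.148 and 1.7 and 0.817 CPM (2.90 ± 0.40). The last 2 were chosen after their values were seen, and all 3 calls held.

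The other 3 sarcomere calls depended on knockout replicate 1, which was the higher MYOD-/- library in each. Ttn, the titin gene, was at 0.871 and 0.578 and 34.4 and 3.38 CPM (4.70 ± 1.05), a call lost without WT replicate 1 (0.0889), WT replicate 2 (0.127) or knockout replicate 1 (0.107). Myom2, the M-protein of the M band, was at 3.44 and 1.21 and 43.5 and 8.78 CPM (3.48 ± 0.80), a call lost without WT replicate 2 (0.143) or knockout replicate 1 (0.106). Synpo2l, a Z-disc protein, was at 1.25 and 0.741 and 19.5 and 1.99 CPM (3.43 ± 0.88), a call lost without WT replicate 1 (0.116), WT replicate 2 (0.193) or knockout replicate 1 (0.357). Genes of the differentiated fibre stayed low under both labels. The embryonic myosin Myh3 was at 0.158 and 0.0542 and 0.26 and 0.182 CPM, the fast light chain Mylpf at 1.03 and 0.722 and 1.08 and 0.767 CPM, and cardiac actin Actc1 at 0.0317 and 0.235 and 1.7 and 0.402 CPM. Des, the muscle intermediate filament desmin, was at 12.3 and 3.03 and 17.9 and 4.09 CPM. None of these 4 passed.

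Calcium release and neuromuscular junction genes had 4 higher and 2 lower of 31 tested (median 0.25), against 4.98% higher and 5.02% lower over all tested genes. Dok7, the adaptor that activates MuSK from inside the cell, was at 0.76 and 0.397 CPM and 10.4 and 12.5 CPM (log2 difference 4.29 ± 0.58, adjusted p = 0.00105), a call that held and passed with the 4 libraries alone. MuSK itself was lower (above), and Rapsn, which clusters acetylcholine receptors, was lower at 41.8 and 45.9 and 23.4 and 20.3 CPM (-1.0 ± 0.17, adjusted p = 0.00349), a held call. The receptor subunit Chrna1 was at 86.4 and 40.6 and 192 and 129 CPM and did not pass (1.34 ± 0.54, adjusted p = 0.149). Ryr1, the calcium release channel, was higher at a low level, 0.111 and 0.0181 and 0.718 and 0.913 CPM (3.56 ± 0.45), a held call. The calsequestrin gene Casq1 had 2 counts under the WT label and 46 under the MYOD-/- label (ratio 22.7, 95% exact counting interval 5.93 to 193), and its call was lost without WT replicate 1 (0.12), WT replicate 2 (0.119) or knockout replicate 1 (0.126). Jsrp1, a junctional sarcoplasmic reticulum protein (2.63 ± 0.58), lost its call without WT replicate 1 (0.0769), WT replicate 2 (0.118) or knockout replicate 1 (0.104). Jsrp1 and Rapsn were chosen after their values were seen.

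In the list of dystrophin complex, membrane repair and fusion genes 3 were higher and 2 lower of 33 (median 0.03). Igsf8, a tetraspanin partner, was lower (-0.69 ± 0.13), a call lost without WT replicate 2 (0.0754) or knockout replicate 2 (0.0541). Mymk, the membrane protein myomaker required for fusion, was at 0.095 and 0.0903 and 1.1 and 0.329 CPM (2.94 ± 0.78), a call lost without WT replicate 1 (0.166), WT replicate 2 (0.18) or knockout replicate 1 (0.213). Dtna, a dystrobrevin (0.80 ± 0.19), lost its call without WT replicate 2 (0.143), knockout replicate 1 (0.0538) or knockout replicate 2 (0.0843).

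The insulin-like growth factor axis had 4 higher and 1 lower of 19 tested (median 0.49). Besides Igfbp2, Igf2r, the receptor that clears IGF2, was at 48 and 50.7 CPM under the WT label and 203 and 260.2 CPM under the MYOD-/- label (log2 difference 2.23 ± 0.18, adjusted p = 4.16e-05), a held call that also passed with the 4 libraries alone. Pappa, a protease that cleaves IGF binding proteins, was at 4.32 and 5.91 and 47.8 and 24.2 CPM (2.82 ± 0.57), a call lost without WT replicate 1 (0.083) or WT replicate 2 (0.0621). Igf2bp1, an RNA-binding protein, was at 3.23 and 4.61 and 21 and 9.09 CPM (1.94 ± 0.43), a call lost without WT replicate 1 (0.114), WT replicate 2 (0.062) or knockout replicate 1 (0.0854). Igfbp6, chosen after its values were seen, was the lower one at 96.6 and 121 and 64.5 and 50.8 CPM (-0.91 ± 0.17), a call lost without WT replicate 2 (0.0664) or knockout replicate 2 (0.0558).

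Imprinted genes, which are expressed from 1 parental copy, had 6 higher and 2 lower of 27 tested (median 0.09). Peg10, a retrotransposon-derived gene, was at 0.19 and 0 CPM under the WT label and 33.3 and 32.4 CPM under the MYOD-/- label (log2 difference 8.33 ± 0.90, adjusted p = 0.000229). Its neighbour on chromosome 6, Sgce, the epsilon-sarcoglycan gene, was at 0.428 and 0.0361 and 24.3 and 18 CPM (6.45 ± 0.79, adjusted p = 0.000536). Both calls held, and neither passed with the 4 libraries alone (adjusted p = 0.0588 and 0.0866). Dio3, the deiodinase that inactivates thyroid hormone, had 0 counts in both WT libraries and 1.22 and 3.98 CPM in the MYOD-/- libraries. This is at least 103-fold higher against a floor of 3 counts over the WT group, and its call was lost without WT replicate 1 (0.0511) or WT replicate 2 (0.0572). It was also lost with DESeq2 (0.318). Igf2r belongs to this list too. Usp29 (1.99 ± 0.44) and Peg3 (1.44 ± 0.40), which are neighbours on chromosome 7, were higher and were chosen after their values were seen. Usp29 lost its call without WT replicate 1 (0.0614), WT replicate 2 (0.123) or knockout replicate 1 (0.0912), and Peg3 without WT replicate 1 (0.0579), WT replicate 2 (0.268) or knockout replicate 1 (0.311). Magel2 was at 1.82 and 0.939 and 0.229 and 0.0365 CPM (-3.32 ± 0.72), a call lost without WT replicate 1 (0.0862) or knockout replicate 2 (0.0727). Gnas, the stimulatory G protein gene, was at 1245 and 1450 and 830.3 and 978 CPM (-0.58 ± 0.13), a call lost without WT replicate 2 (0.138) or knockout replicate 1 (0.0947). It was chosen after its values were seen.

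Interstitial collagen and matrix genes had 3 higher and 5 lower of 50 tested (median -0.42). Tnc, the glycoprotein tenascin-C, was at 153 and 86.7 CPM under the WT label and 867 and 1589 CPM under the MYOD-/- label (log2 difference 3.35 ± 0.38, adjusted p = 0.000321). Thbs2, a thrombospondin, was at 118 and 120 and 378 and 564 CPM (1.99 ± 0.21, adjusted p = 0.000194), and the gelatinase Mmp2 at 7.63 and 1.9 and 123 and 64.5 CPM (4.29 ± 0.71, adjusted p = 0.00329). Fbln5, an elastic fibre protein, was lower at 11.3 and 18.9 and 1.37 and 0.511 CPM (-3.99 ± 0.55, adjusted p = 0.00109). These 4 calls held. Spp1, osteopontin, was at 2828 and 1283 and 1028 and 799 CPM (-1.17 ± 0.31), the collagen chain gene Col6a3 at 971 and 984 and 464 and 440.5 CPM (-1.11 ± 0.31), and the proteoglycan Bgn at 1455 and 1902 and 874 and 1083 CPM (-0.78 ± 0.20). Mfap5, a microfibril protein, was below 1 CPM (-1.91 ± 0.55). These last 4 were chosen after their values were seen, and each lost its call without at least 1 library. Spp1 lost it without WT replicate 1 (0.3), knockout replicate 1 (0.055) or knockout replicate 2 (0.183), Col6a3 without WT replicate 1 (0.128), WT replicate 2 (0.15), knockout replicate 1 (0.101) or knockout replicate 2 (0.174), Bgn without WT replicate 2 (0.201), knockout replicate 1 (0.125) or knockout replicate 2 (0.0529), and Mfap5 without WT replicate 1 (0.283), WT replicate 2 (0.0524) or knockout replicate 2 (0.229).

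Basement membrane and integrin genes had 0 higher and 2 lower of 27 with edgeR (median -0.11), 1 higher and 5 lower at an unadjusted p under 0.05, and 0 and 3 with DESeq2. Nid1, the laminin linker nidogen, was at 1467 and 1507 and 663 and 604 CPM (-1.23 ± 0.24, adjusted p = 0.00795), a call lost without knockout replicate 2 (0.0554). Lamc1, a laminin chain, was at 349 and 438 and 239 and 271 CPM (-0.63 ± 0.14), a call lost without WT replicate 2 (0.16) or knockout replicate 1 (0.0862). In TGF-beta, BMP and activin signalling 1 was higher and 2 lower of 37 (median -0.05). Nog, the BMP antagonist noggin, was at 0.253 and 0.433 and 15.1 and 3.03 CPM (4.73 ± 0.70, adjusted p = 0.00177), a held call. The lower ones were Fst and Ltbp2, a latent TGF-beta binding protein at 95 and 149.8 and 12.8 and 36.2 CPM (-2.32 ± 0.60), whose call was lost without WT replicate 1 (0.0526), WT replicate 2 (0.153) or knockout replicate 1 (0.115).

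Smooth muscle and cytoskeletal targets of serum response factor had 1 higher and 4 lower of 24 (median -0.32). The lower ones were the leiomodin Lmod1 (-1.55 ± 0.41), the calponin Cnn2 (-1.01 ± 0.28), Csrp1 (-0.75 ± 0.21) and vinculin, Vcl (-0.68 ± 0.19), the last chosen after its values were seen. All 4 lost their calls without WT replicate 2 (adjusted p = 0.276, 0.328, 0.269 and 0.344), the library with the highest levels, for example 482 and 907 CPM of Cnn2 under the WT label and 373 and 318 CPM under the MYOD-/- label. Lmod1, Cnn2 and Vcl also lost them without knockout replicate 1 (0.0743, 0.0696 and 0.104), and all 4 without knockout replicate 2 (0.176, 0.192, 0.236 and 0.183). Smooth muscle calponin, Cnn1, was the higher one at low level (2.84 ± 0.68), a call lost without WT replicate 1 (0.14), WT replicate 2 (0.111) or knockout replicate 1 (0.101). Acta2, smooth muscle actin, was at 1144 and 2303 and 962 and 244 CPM and did not pass (-1.51 ± 0.50, adjusted p = 0.0821). It passed with DESeq2 (0.0156) and without knockout replicate 1 (0.00206).

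Wnt and Hippo genes had 3 higher and 5 lower of 36 tested (median -0.16). The Wnt receptor Fzd8 was at 3.47 and 4.26 CPM under the WT label and 0.26 and 0.31 CPM under the MYOD-/- label (log2 difference -3.76 ± 0.42, adjusted p = 0.000427), a call that held and passed with the 4 libraries alone. The ligand Wnt10a was lower at 26.1 and 24.1 and 10.5 and 5.04 CPM (-1.69 ± 0.32, adjusted p = 0.00724), a held call. Lef1, a transcription factor of the Wnt pathway, was higher at 3.96 and 3.9 and 11.5 and 14.2 CPM (1.71 ± 0.15, adjusted p = 6.87e-05), also a held call. Fzd4 (-1.83 ± 0.48) and Fzd2 (-1.0 ± 0.26), receptors as well, were lower. Fzd4 lost its call without WT replicate 1 (0.178), WT replicate 2 (0.0567) or knockout replicate 2 (0.184), and Fzd2 without WT replicate 1 (0.0778), WT replicate 2 (0.147) or knockout replicate 2 (0.183). Axin2, a negative regulator and target of the pathway, was higher at low level (1.96 ± 0.47), a call lost without WT replicate 1 (0.0728), WT replicate 2 (0.16) or knockout replicate 1 (0.123). Of the TEAD factors, which read out Hippo signalling, Tead3 was lower at 20.8 and 43.3 and 9.33 and 11.7 CPM (-1.60 ± 0.31), a call lost without WT replicate 2 (0.0597). Tead2 was higher at 21.5 and 27 and 49.1 and 39 CPM (0.86 ± 0.18), a call lost without WT replicate 1 (0.109) or knockout replicate 1 (0.068). Fzd2, Wnt10a, Tead2 and Tead3 were chosen after their values were seen.

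Among metabolic genes of muscle 2 were higher and 3 lower of 25 (median 0.20). Ppargc1a (above) and the phosphofructokinase Pfkm, at 60.8 and 59.5 and 83.8 and 94.3 CPM (0.57 ± 0.13), were higher. Ckb, brain creatine kinase, was lower at 4.4 and 3.92 and 0.855 and 0.602 CPM (-2.50 ± 0.28, adjusted p = 0.000301), a held call. Eno3, muscle enolase, was at 745 and 755 and 433 and 429 CPM (-0.80 ± 0.16), and Pdk4, an inhibitor of pyruvate dehydrogenase, at 49 and 59.2 and 35.8 and 22.3 CPM (-0.90 ± 0.22). Eno3 lost its call without WT replicate 2 (0.0538), Pdk4 without WT replicate 2 (0.151) or knockout replicate 2 (0.142), and Pfkm, chosen after its values were seen, without WT replicate 1 (0.0906), WT replicate 2 (0.127) or knockout replicate 2 (0.129). Glutathione and NRF2 genes had 1 higher and 4 lower of 33 (median -0.04). The microsomal transferase Mgst1 was at 2.72 and 1.62 and 0.504 and 0.42 CPM (-2.23 ± 0.40, adjusted p = 0.00519), a held call. Mgst3 (-1.57 ± 0.30) lost its call without WT replicate 2 (0.0638), Gpx8 (-0.83 ± 0.20) without WT replicate 1 (0.0888), WT replicate 2 (0.0966) or knockout replicate 2 (0.127), the reductase Gsr (-0.52 ± 0.13, chosen after its values were seen) without WT replicate 1 (0.0763), WT replicate 2 (0.172), knockout replicate 1 (0.101) or knockout replicate 2 (0.103), and Gsta2, the higher one (5.0 ± 1.07), without WT replicate 1 (0.101), WT replicate 2 (0.0946) or knockout replicate 2 (0.0688).

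Sterol synthesis and uptake genes had mostly negative differences that did not pass singly. Of 27 tested, 2 had a positive difference, the median was -0.82, and 1 passed. The summed level of the list was 8886 and 4483 CPM under the WT label and 6601 and 3132 CPM under the MYOD-/- label. Under both labels the list was lower in replicate 2 than in replicate 1, by more than the difference between labels. In the list of the integrated stress and unfolded protein responses 1 of 31 passed (median 0.04), the disulfide isomerase Pdia6 at 359 and 372 and 236 and 233 CPM (-0.64 ± 0.13), a call lost without WT replicate 2 (0.0606).

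Of the proliferation genes 1 passed the test. Of 50 cell cycle genes, 0 were higher and 1 lower with edgeR (median -0.06), 4 and 3 at an unadjusted p under 0.05, and 2 and 1 with DESeq2. The 1 was Rrm2, a subunit of ribonucleotide reductase, at 518 and 542 and 389 and 377 CPM (-0.47 ± 0.13, adjusted p = 0.046), a call lost without WT replicate 1 (0.122), WT replicate 2 (0.194), knockout replicate 1 (0.0963) or knockout replicate 2 (0.184). Mki67, the antigen of cycling cells, was at 553 and 430.2 and 569 and 417 CPM (0.00 ± 0.21, adjusted p = 0.999), and cyclin D1, Ccnd1, at 433 and 504 and 334 and 387 CPM (-0.38 ± 0.25, adjusted p = 0.392). With edgeR 0 of 33 genes of cell cycle exit and the p53 response passed (median -0.01), 7 had an unadjusted p under 0.05 (2 higher, 5 lower), and 0 passed with DESeq2 or limma. Of 25 Hox genes, which record body position, 0 passed with edgeR (median 0.00), 1 had an unadjusted p under 0.05, and 0 passed with DESeq2 or limma.

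Of 42 interferon-response genes 0 passed in proliferating MUNC cells (edgeR, median 0.50, or 0.43 with genes at 0 counts at their bound). At an unadjusted p under 0.05 there were 5 higher and 2 lower, DESeq2 called 3 higher and 0 lower, and limma called 0. Isg15, a ubiquitin-like protein, was at 0.536 and 0.268 and 0.916 and 0.728 CPM. Cytokines and chemokines had 5 higher and 3 lower of 33 (median 0.53). Il34, a ligand of the CSF1 receptor, was at 5.72 and 4.8 and 12.1 and 19.5 CPM (1.59 ± 0.25, adjusted p = 0.00287), a held call. The alarmin Il33 (2.40 ± 0.63), the neutrophil chemokine Cxcl1 (2.08 ± 0.50), Lif (1.27 ± 0.29) and Nfkb2 (1.12 ± 0.23) were higher too. Il33 lost its call without WT replicate 1 (0.0617), WT replicate 2 (0.207) or knockout replicate 2 (0.119), Cxcl1 without WT replicate 1 (0.0625), WT replicate 2 (0.168) or knockout replicate 2 (0.101), Lif without WT replicate 1 (0.0757), WT replicate 2 (0.123) or knockout replicate 2 (0.116), and Nfkb2 without WT replicate 1 (0.0744), WT replicate 2 (0.0668) or knockout replicate 2 (0.0863). The neurotrophin Bdnf was lower at 105 and 161 and 38.1 and 66.5 CPM (-1.34 ± 0.36), a call lost without WT replicate 2 (0.211) or knockout replicate 1 (0.142). Both chains of the interleukin 6 receptor were lower, Il6ra at 18.4 and 12.8 and 7.13 and 8.47 CPM (-1.0 ± 0.23) and the signalling chain Il6st at 127 and 139.9 and 89.4 and 95.8 CPM (-0.53 ± 0.12). Il6ra lost its call without WT replicate 1 (0.146), knockout replicate 1 (0.0858) or knockout replicate 2 (0.0517), and Il6st without WT replicate 2 (0.128), knockout replicate 1 (0.0754) or knockout replicate 2 (0.0647). Lif, Nfkb2, Il6ra and Il6st were chosen after their values were seen.

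**Figure D3:**
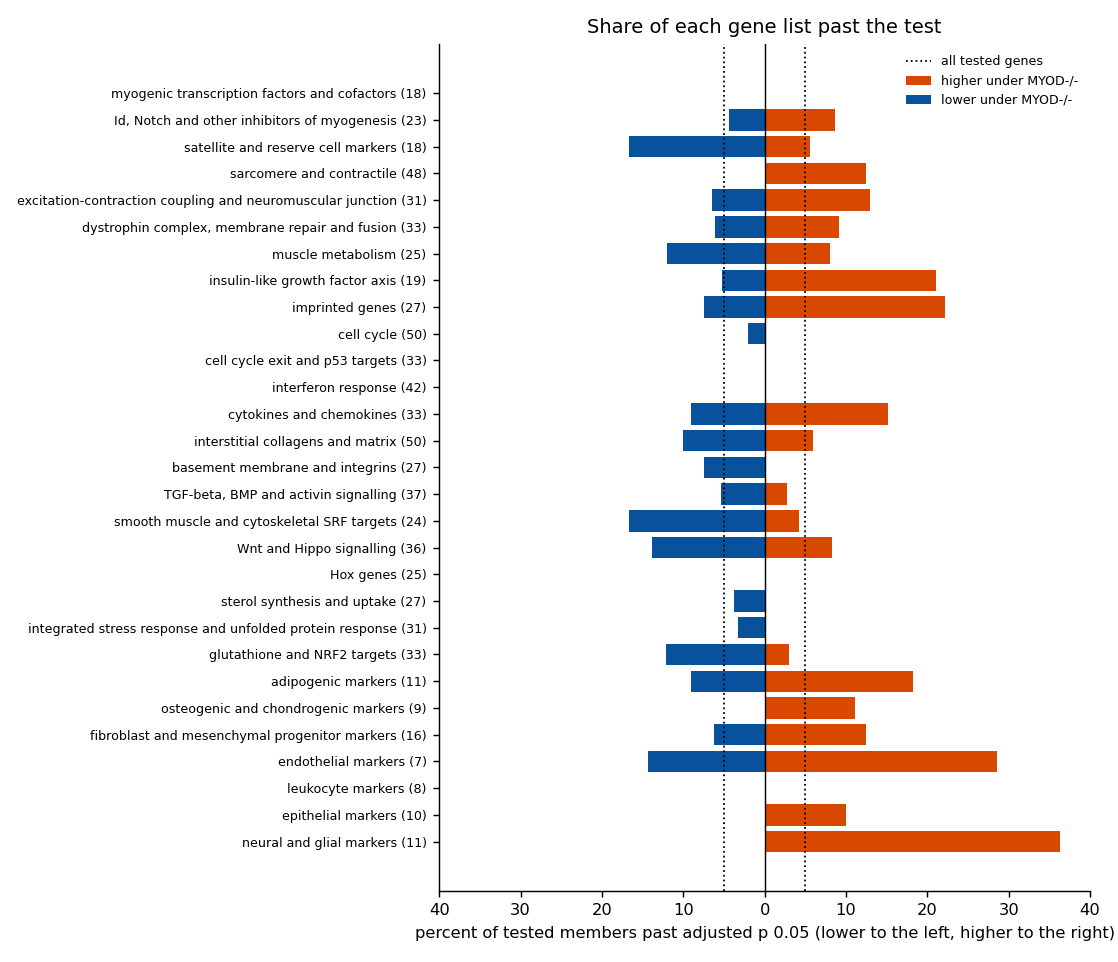
Share of the tested members of each of 29 gene lists that passed the test in proliferating MUNC cells, in percent, with lower genes to the left and higher genes to the right. The number of tested members stands in brackets and the dotted lines mark all tested genes (5.02% lower, 4.98% higher). Lists of few members give coarse shares, such as 4 of 11 for the neural and glial markers.

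The levels of other cell types' markers were summed over each list. The 16 endothelial markers summed to 4.12 and 3.83 CPM under the WT label and 5.13 and 11.5 CPM under the MYOD-/- label, with 4 members (Tie1, Emcn, Cldn5, Sox17) at 0 counts in all 4 libraries. The 16 leukocyte markers summed to 4.28 and 4.69 CPM under the WT label and 3.18 and 7.64 CPM under the MYOD-/- label, with Adgre1, Tyrobp and Cd3e among those at 0, and 0 of 8 tested passed with edgeR, DESeq2 or limma (1 higher at an unadjusted p under 0.05). The 16 epithelial markers summed to 68 and 91.3 CPM under the WT label and 62.3 and 51.8 CPM under the MYOD-/- label, with Epcam and Cldn3 at 0. The 18 adipogenic markers summed to 194 and 354 CPM under the WT label and 151 and 396 CPM under the MYOD-/- label, with Lep at 0. The 18 osteogenic and chondrogenic markers summed to 209.9 and 193 CPM under the WT label and 202 and 244 CPM under the MYOD-/- label, with Ibsp and Col9a1 at 0. The 20 fibroblast and mesenchymal progenitor markers summed to 3093 and 2942 CPM under the WT label and 2754 and 2299 CPM under the MYOD-/- label, with Thy1 and Tcf21 at 0. The part of other cells in the differences above was not tested.

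Single members of these lists did differ. Cebpa, a transcription factor of adipocytes and other lineages, was at 5.96 and 3.72 CPM under the WT label and 0.703 and 0.128 CPM under the MYOD-/- label (-3.51 ± 0.71, adjusted p = 0.00984), a held call. The adipogenic list gave 2 higher and 1 lower of 11, the higher ones being Fabp4 (2.31 ± 0.54, lost without WT replicate 1 (0.12), WT replicate 2 (0.111) or knockout replicate 2 (0.0899)) and Dgat2 (1.20 ± 0.26, lost without WT replicate 1 (0.0898) or WT replicate 2 (0.0726)). Ly6e, a surface protein of the Ly6 family, was at 10.9 and 4.37 and 73.8 and 42 CPM (2.92 ± 0.49, adjusted p = 0.00349), a held call. In the fibroblast list (2 higher and 1 lower of 16) Cd44 was higher at 365 and 309 and 588 and 455 CPM (0.63 ± 0.16, lost without WT replicate 1 (0.0654), WT replicate 2 (0.216) or knockout replicate 1 (0.166)), and the sialomucin Cd248 lower (-1.63 ± 0.42, lost without WT replicate 1 (0.133), WT replicate 2 (0.0787) or knockout replicate 2 (0.176)). Egfl7 was lower at 0.729 and 0.885 and 0.199 and 0.128 CPM (-2.28 ± 0.39, adjusted p = 0.0041), a held call. The endothelial list gave 2 higher and 1 lower of 7, the higher ones being Cdh5 at 0.095 and 0.0903 and 0.947 and 6.77 CPM (lost without WT replicate 1 (0.0957), WT replicate 2 (0.112) or knockout replicate 2 (0.0911)) and Tek (2.69 ± 0.75, lost without WT replicate 1 (0.192), WT replicate 2 (0.18) or knockout replicate 1 (0.197)). Sox6 of the chondrogenic list (2.86 ± 0.73) and Grhl2 of the epithelial list (2.99 ± 0.78) were higher below 1 CPM. Sox6 lost its call without WT replicate 1 (0.129), WT replicate 2 (0.171) or knockout replicate 2 (0.234), and Grhl2 without WT replicate 1 (0.146), WT replicate 2 (0.175) or knockout replicate 2 (0.202).

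Neural and glial markers had 4 higher and 0 lower of 11 tested with edgeR (median 0.41), and 6 and 0 at an unadjusted p under 0.05 and 3 and 0 with DESeq2. The 16 members summed to 1530 and 1623 CPM under the WT label and 2304 and 2457 CPM under the MYOD-/- label. The neurofilament genes Nefm, at 0.618 and 1.88 and 17.2 and 57.8 CPM (4.92 ± 0.93, adjusted p = 0.0067), and Nefl, at 19.3 and 47.8 and 109.7 and 425 CPM (2.99 ± 0.70), were higher, and under each label the replicate 2 library was the higher one. Nefm lost its call without WT replicate 1 (0.061), and Nefl without WT replicate 1 (0.133) or knockout replicate 2 (0.154). The tubulin gene Tubb3 was at 14.1 and 10.5 and 64.2 and 33.1 CPM (1.98 ± 0.50), a call lost without WT replicate 1 (0.0952), WT replicate 2 (0.182) or knockout replicate 1 (0.119). The 3 members of this list at 0 counts in all 4 libraries were Rbfox3, Sox10 and Sox2.

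The same labels were compared in the 4 proliferating empty-vector libraries, which share no library with the MUNC comparison. Of the 745 genes higher in MUNC cells, 540 (72.5%) had a difference of the same sign with the empty vector, and of the 751 lower genes 538 (71.6%), against 58.9% of all tested genes. Their median differences there were 0.49 and -0.26. The difference between labels was another one in the MUNC lines than in the empty-vector lines for 738 genes (4.93%, interaction of genotype and vector). It was more positive with MUNC for 413 (2.76%) and more negative for 325 (2.17%). Each combination of label and vector is a single line, so vector and line cannot be told apart here.

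Several of the largest differences were alike with either vector. Igfbp2 differed by 9.62 ± 1.11 with the empty vector, at 0.162 and 0 CPM (WT label) and 80.3 and 59.3 CPM (MYOD-/- label). Zfp518b stood there at 0 and 0.0381 and 12 and 11.7 CPM, Ptprd differed by 8.09 ± 0.64, Cd34 by 5.22 ± 0.65 and Xirp1 by 6.18 ± 0.67. Among the lower genes Kcnk5 differed by -6.57 ± 0.50, Gm2a by -4.51 ± 0.45, Sfmbt2 by -3.67 ± 0.34 and Fbln5 by -3.43 ± 0.54. None of these genes passed the interaction test, which does not show that the differences were equal.

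In another set the WT-labelled MUNC libraries stood apart from the other 6 proliferating libraries. Peg10 was at 34.4 and 43.5 CPM in the WT-labelled and 29.9 and 38.2 CPM in the MYOD-/- empty-vector libraries, close to the MYOD-/- MUNC libraries (interaction 8.52 ± 1.06, adjusted p = 0.00103). Sgce, at 20.4 and 16.7 and 25.7 and 22.2 CPM, gave an interaction of 6.08 ± 0.96, adjusted p = 0.00412, and Nbea, at 7.15 and 11.4 and 5.51 and 7.79 CPM, one of 7.59 ± 0.98, adjusted p = 0.00126. Tnc was at 676 and 872 and 695 and 1092 CPM (3.15 ± 0.50, adjusted p = 0.00415) and Thbs2 at 442 and 475 and 352 and 526 CPM (2.05 ± 0.29, adjusted p = 0.00199). In the opposite direction Tmem45a was at 11.5 and 6.88 and 8.72 and 7.17 CPM with the empty vector (-4.13 ± 0.44, adjusted p = 0.000414), and Epha7 at 0.113 and 0.0572 and 0.455 and 0.136 CPM (-6.32 ± 0.69, adjusted p = 0.000434). Rapsn was at 19.9 and 19 and 26 and 25.5 CPM (-1.41 ± 0.24, adjusted p = 0.0058). The interactions of these 8 genes held when any 1 of the 8 libraries was left out. Tnc (0.0678) and Thbs2 (0.0564) did not pass with only these 8 libraries in the fit.

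A further set had differences of opposite sign with the 2 vectors, or a larger difference with the empty vector than with MUNC. Epha4, an ephrin receptor, was lower under the MYOD-/- label with MUNC, at 13.3 and 21.1 and 2.63 and 2.7 CPM, and stood at 0.194 and 0.0458 and 3.13 and 4.21 CPM with the empty vector (interaction -7.60 ± 0.71, adjusted p = 0.000212). Follistatin, Fst, stood at 0.0809 and 0.114 and 2.46 and 2.93 CPM with the empty vector (-7.54 ± 1.08, adjusted p = 0.00223). Ly6e, higher with MUNC, was at 221 and 175 and 74.2 and 35.3 CPM with the empty vector (4.77 ± 0.67, adjusted p = 0.00199), and Axin2 at 2.47 and 2.8 and 0.723 and 0.476 CPM (4.10 ± 0.63, adjusted p = 0.00337). Dysf, the membrane repair protein dysferlin, did not pass with MUNC, at 2.71 and 3.96 and 4.23 and 4.51 CPM, and was at 0.129 and 0.248 and 4.71 and 4.18 CPM with the empty vector (-4.17 ± 0.39, adjusted p = 0.000214). Chemokine gene Cxcl10 was at 0.0475 and 0.126 and 0.489 and 0.402 CPM with MUNC and at 9.54 and 8.16 and 0.482 and 0.551 CPM with the empty vector (6.46 ± 0.87, adjusted p = 0.0015). Each of these 6 interactions held without any 1 of the 8 libraries. For Epha4, Ly6e, Dysf and Cxcl10 the MYOD-/- libraries were at like levels with either vector, and the WT-labelled groups differed. Across tested genes, log2 CPM of MUNC and empty-vector libraries under the MYOD-/- label correlated at 0.998 (replicate 1) and 0.995 (replicate 2). Under the WT label the same correlations were 0.977 and 0.975. Between the 2 labels, the MUNC libraries correlated at 0.982 (replicate 1) and 0.975 (replicate 2).

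**Figure D4:**
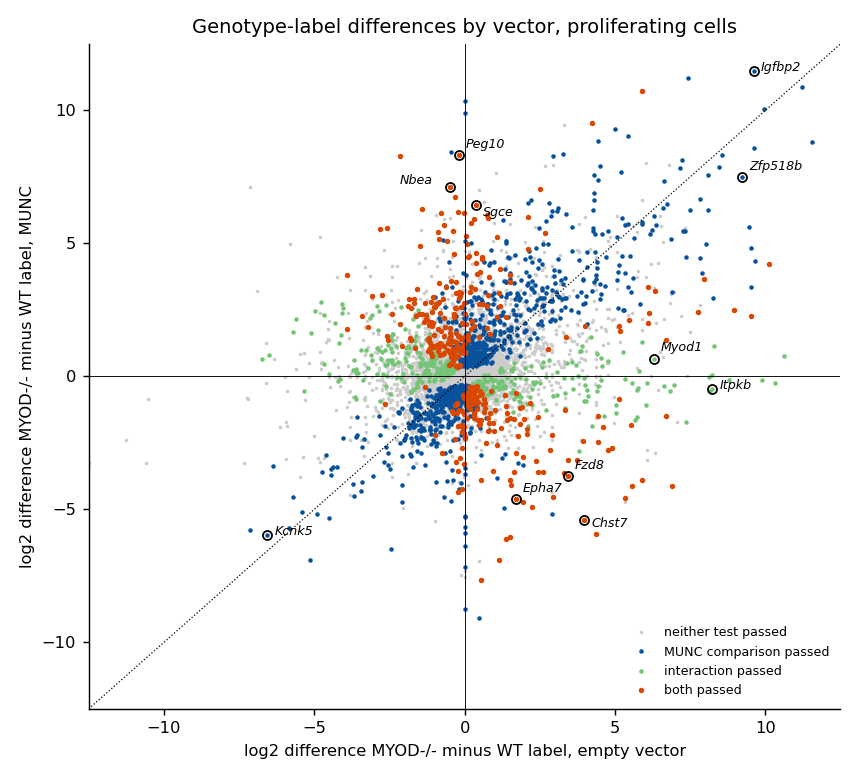
Log2 difference between the MYOD-/- and WT labels with the empty vector (horizontal axis) and with the MUNC vector (vertical axis) for the 14972 genes tested in proliferating cells. Colours mark genes past the test in MUNC cells, in the interaction of genotype and vector, in both or in neither, and the dotted line marks equal differences. Igfbp2, Zfp518b and Kcnk5 lie near the dotted line, Peg10, Nbea and Sgce near the vertical axis, and Myod1 and Itpkb near the horizontal axis.

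In differentiating MUNC cells, which are the same 2 lines in other libraries, most differences between labels kept their sign. The sign was the same there for 723 of the 745 higher genes (97%) and 726 of the 751 lower genes (96.7%), against 71% of all tested genes, with median differences of 1.87 and -0.79. Igfbp2 differed by 10.09 ± 1.04 after differentiation, Peg10 by 6.84 ± 0.85, Slc9a2 by -5.17 ± 0.48 and Kcnk5 by -5.59 ± 0.45. The interaction of genotype and medium passed for 206 genes (1.38%), with 21 more positive (0.14%) and 185 more negative (1.24%) in proliferating cells.

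Of the 42 interferon genes 30 were among the 185, and the median interaction over all 42 was -4.96. How many of these 30 calls depend on a single library was not counted. The calls of Usp18 and Ifi44, given further below, were lost without WT replicate 1 in GM. Isg15 was at 0.536 and 0.268 and 0.916 and 0.728 CPM in proliferating cells and at 4.91 and 5.92 (WT label) and 227 and 274 CPM (MYOD-/- label) in differentiating cells (interaction -4.52 ± 0.65, adjusted p = 0.00743), a call lost without WT replicate 1 in GM (0.0855). Of the 48 sarcomere genes 8 were among the 185, and the median difference between labels was 0.84 in proliferating and 2.59 in differentiating cells. Tmod1 was at 0.659 and 0.565 and 64.3 and 51.4 CPM after differentiation (interaction -3.67 ± 0.56, adjusted p = 0.00987), a call lost without WT replicate 1 in GM (0.106) or WT replicate 2 in DM (0.0542), or with only these 8 libraries in the fit (0.0564).

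The differences also varied with chromosome, a pattern looked at after the values were seen and given without a test. On chromosome 12, 97 of 519 tested genes were lower (18.7%) and 15 higher (2.89%), with a median difference of -0.33. On chromosome 13, 61 of 580 were lower (10.5%) and 18 higher (3.1%), with a median of -0.29, and on chromosome 2, 115 of 1166 were lower (9.86%) and 39 higher (3.34%), with a median of -0.21. The opposite held on chromosome 6, with 66 of 734 genes higher (8.99%), 14 lower (1.91%) and a median of 0.25, and on chromosome 3, with 73 of 741 higher (9.85%), 18 lower (2.43%) and a median of 0.19. Within replicate 1 and within replicate 2 the median difference on chromosome 12 was -0.29 and -0.28, and on chromosome 6 it was 0.19 and 0.18. In differentiating MUNC cells the medians were -0.25 on chromosome 12, -0.22 on chromosome 13, -0.22 on chromosome 2, 0.19 on chromosome 6 and 0.26 on chromosome 3. With the empty vector they were -0.14, -0.026, -0.10, -0.07 and 0.19 in the same order, so that chromosome 3 had a median of like size with either vector and chromosome 6 one of the opposite sign. Chromosome 11 had a median of -0.36 with the empty vector and 0.06 with MUNC, and chromosome 1 had 0.08 with the empty vector and -0.14 with MUNC. Sgce and Peg10 lie on chromosome 6, and Fbln5, Ckb, Ltbp2, Jag2, Rrm2 and Pdia6, which were lower, on chromosome 12. Dio3 lies on chromosome 12 as well and was higher.

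**Figure D5:**
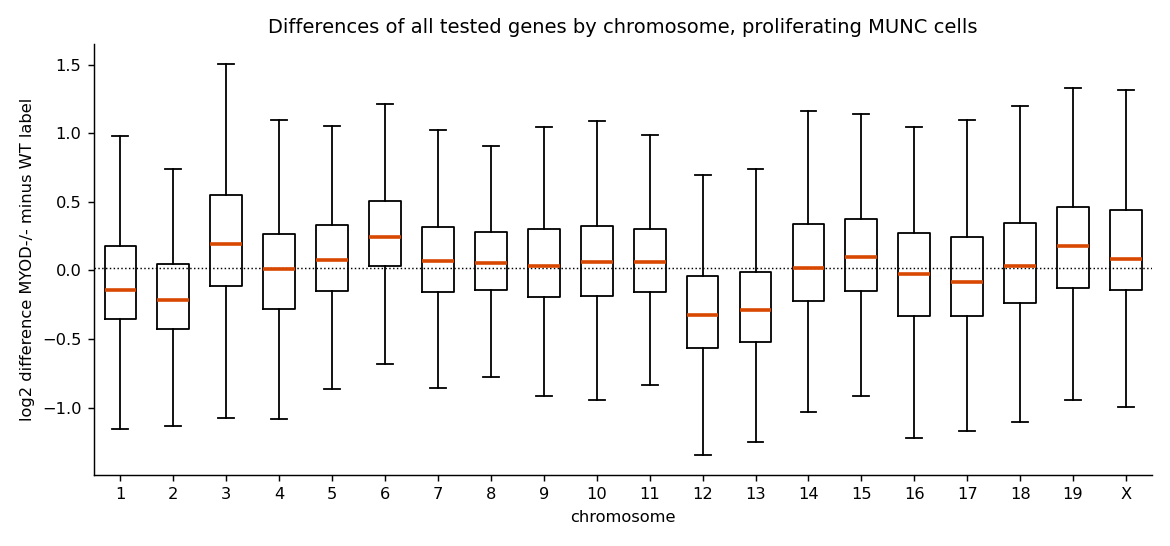
Log2 differences between the MYOD-/- and WT labels of all tested genes in proliferating MUNC cells, by chromosome. Boxes span the quartiles with the median in orange, whiskers reach the last gene within 1.5 box heights, genes beyond them are not drawn, and the dotted line is the median of all genes (0.02). Chromosomes 2, 12 and 13 sit furthest below that line and chromosomes 3, 6 and 19 furthest above it.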

How the data were processed

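Poly(A) RNA of 16 C2C12 libraries (8 groups of 2) was sequenced, and the estimated counts and TPM values per transcript were made by the authors with kallisto, per the file headers and the submitters' processing notes, which name mm10 and bcl2fastq without versions. The deposited files hold 1 library each. No source used here states the strand setting or filters, so reads of overlapping, antisense or near-identical genes cannot be told apart.

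Estimated counts of 35818 transcripts were summed to 24497 genes by RefSeq accession (35492 through the GRCm38.p6 table, 188 through GENCODE M21 and 138 unmatched, which hold 0.311% to 0.62% of the counts in the 4 libraries compared) and rounded to whole numbers. Groups follow the labels for genotype, vector and medium. The main test was edgeR 4.0.16 in R 4.3.3 (TMM, filterByExpr, quasi-likelihood F test, two-sided) with 1 mean per group over all 16 libraries and Benjamini-Hochberg adjustment over 14972 genes. The interactions of genotype with vector and with medium came from the same fit. The pipeline was tested on simulated data. Alternatives were DESeq2 1.42.0, its size factors in edgeR, no filter on low counts, only the libraries compared, a replicate block, limma 3.58.1 on log2(TPM + 1) and log2(TPM + 0.1), and leaving out each library in turn. A gene at 0 counts was compared with a floor of 3 counts per group; intervals and floors cover counting error only.

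Genes were named from a panel of 42, the 12 largest differences each way at 5 CPM or more with groups that did not overlap, up to 4 called members with the largest differences and the most abundant member of each list, and the 5 largest interactions each way. Exceptions are marked in the text, and some members are not reported here. The comparison, the lists and the panel were chosen with earlier results of these data known.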

Additional observations from a re-analysis of the deposited data

Results flagged for a closer look

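Each group holds 2 libraries, too few to look for a single library far from its group. The results given here are those in which the difference between the MYOD-/- and WT labels was itself another one with the empty vector or after differentiation, by the interaction test of edgeR's quasi-likelihood fit. With the MUNC vector the difference was more positive than with the empty vector for 413 genes and more negative for 325. In proliferating MUNC cells it was more positive than in differentiating ones for 21 genes and more negative for 185. Of the genes named here, 37 passed for the vector and 11 for the medium.

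The interaction with the vector held without any 1 of the 8 libraries for 25 of the 37. Those more positive with MUNC, as log2 values with their SE, were Peg10 (8.52 ± 1.06), Nbea (7.59 ± 0.98), Ccl5 (6.82 ± 1.17), Cxcl10 (6.46 ± 0.87), Nefm (6.41 ± 1.20), Sgce (6.08 ± 0.96), Ly6e (4.77 ± 0.67), Isg15 (4.45 ± 0.67), Axin2 (4.10 ± 0.63), Tnc (3.15 ± 0.50), Lif (2.43 ± 0.41), Gramd1b (2.27 ± 0.38) and Thbs2 (2.05 ± 0.29). Those more negative were Chst7 (-9.38 ± 0.81), Itpkb (-8.71 ± 0.80), Epha4 (-7.60 ± 0.71), Fst (-7.54 ± 1.08), Galnt18 (-7.49 ± 1.06), Fzd8 (-7.18 ± 0.74), Epha7 (-6.32 ± 0.69), Myod1 (-5.62 ± 0.91), Dysf (-4.17 ± 0.39), Tmem45a (-4.13 ± 0.44), Mgst1 (-4.02 ± 0.58) and Rapsn (-1.41 ± 0.24). Chst7, Itpkb and Fzd8 had at most 3 counts in the WT-labelled empty-vector libraries together, so the size of their interactions depends on the prior count. With only the 8 libraries in the fit 19 of the 37 passed. Of the 25, Galnt18 (adjusted p = 0.0527), Thbs2 (0.0564), Mgst1 (0.0577), Myod1 (0.0599), Tnc (0.0678), Ccl5 (0.0753), Isg15 (0.0786), Gramd1b (0.0869) and Nefm (0.0905) did not.

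The other 12 lost the call in at least 1 of the 8 fits. Ppargc1a (4.53 ± 0.89) lost it without WT MUNC replicate 1 (adjusted p = 0.0774), Lpar3 (-8.05 ± 1.41) without knockout empty-vector replicate 1 (0.358), and Rab3b (-7.52 ± 1.65) without WT empty-vector replicate 1 (0.0868) or knockout empty-vector replicate 2 (0.97). Slc9a2 (-7.50 ± 1.55), which had at most 3 counts in each empty-vector group, lost it without knockout empty-vector replicate 1 (0.113) or replicate 2 (0.106), and Il6ra (-1.67 ± 0.33) without WT empty-vector replicate 1 (0.0629) or WT MUNC replicate 1 (0.0535). The following lost it in 4 to 7 of the 8 fits, with the highest adjusted p and the library left out in brackets. They were Stmn4 at 5.30 ± 1.11 (0.0936, WT MUNC replicate 1), Musk at -4.45 ± 1.09 (0.418, knockout empty-vector replicate 1), Dtna at 1.20 ± 0.27 (0.0908, knockout empty-vector replicate 1), Igf2r at 1.14 ± 0.25 (0.0946, WT empty-vector replicate 1), Igfbp6 at -1.01 ± 0.24 (0.139, WT MUNC replicate 2), Gnas at -0.78 ± 0.19 (0.133, WT MUNC replicate 2) and Nid1 at -1.40 ± 0.33 (0.136, WT empty-vector replicate 2).

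For the medium, each of the 11 lost the call in at least 1 of the 8 fits, and 1 of them, Isg15 (0.0142), passed with only the 8 libraries in the fit. Isg15 (-4.52 ± 0.65) lost it without WT replicate 1 in growth medium (0.0855), Usp18 (-7.96 ± 1.5) without that library (0.654) or knockout replicate 2 in differentiation medium (0.0579), and Tmod1 (-3.67 ± 0.56) without that library (0.106) or WT replicate 2 in differentiation medium (0.0542). Xirp2 (-4.24 ± 0.69) and Prg4 (3.74 ± 0.63), the gene of lubricin, lost it without that library (0.061 and 0.0674) and without WT replicate 1 (0.0795 and 0.0686) or WT replicate 2 (0.0828 and 0.06) in differentiation medium. The other 6 lost the call in 5 to 8 of the 8 fits. With the highest adjusted p in brackets, Ifi44 was at -6.85 ± 1.41 (0.597) and Mylpf at -2.31 ± 0.47 (0.179), both without WT replicate 1 in growth medium. Tubb3 was at -3.37 ± 0.70 (0.187) and Gramd1b at 1.74 ± 0.37 (0.18), both without WT replicate 1 in differentiation medium. Churc1 was at 1.44 ± 0.28 (0.142) and Cd44 at -1.32 ± 0.23 (0.103), both without WT replicate 2 in differentiation medium.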

How the results depend on the processing

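The number of genes that differed between the labels (1496) was 2138 with DESeq2, 1485 with its size factors in edgeR, 1347 without the filter, and 1187 and 1361 with limma on log2(TPM + 1) and log2(TPM + 0.1). With only the 4 libraries it was 70 (41 higher, 29 lower), a fit with 2 residual degrees of freedom, and leaving out 1 library gave 607 to 1573. The interaction with the vector (738) gave 1263 calls with DESeq2, 225 with only its 8 libraries and 397 to 740 without 1 library, and that with the medium (206) gave 492 with DESeq2, 563 and 379 with limma at pseudocounts of 1 and 0.1, 81 with only its 8 libraries and 59 to 279 without 1 library. The causes were not tested. The replicate numbers are shared by all 8 groups, and nothing in the labels says that they mark a shared culture or day. Zrsr1 nonetheless took at most 0.0344% of the counts in every replicate 1 library and at least 1.49% in every replicate 2 library. The main test does not use the replicate number. The differences of replicate 2 from replicate 1 correlated at 0.669 across genes between the 2 labels. With a replicate block the counts were 2379 (1107 higher, 1272 lower), 1168 and 388, and all 1496 calls remained. The block also gave calls for MUNC (Gm45923, adjusted p = 0.0153), Cxcl10 (0.0287), Myf6 (0.0332) and Acta2 (0.0487), which had missed the threshold. Of the 115 named genes that passed, 114 did with DESeq2, 112 with its size factors, 112 without the filter, 90 and 79 with limma at pseudocounts of 0.1 and 1, 19 with the 4 libraries alone and 46 without any 1 library. Direction turned for 9 genes when 1 library was left out, none of which passed in the fit to all libraries. Their differences ran from -0.011 (without knockout replicate 2) to 0.29 for Myf5, from -1.02 (without knockout replicate 1) to 2.81 for Myog, from -3.11 to 0.59 for Id1 and from -1.68 to 0.51 for Id3 (both above 0 without WT replicate 2). They ran from -5.12 to 1.86 for Cdh15 and from -6.76 to 3.30 for H19, with 0.78 and 0.90 without knockout replicate 2 and the highest values without WT replicate 1. Without WT replicate 2 or knockout replicate 1 they were -0.17 and -0.92 for Des, -0.15 and -0.21 for Mylpf and -0.17 and -0.25 for Mki67, against highest values of 1.86, 0.36 and 0.20. How depth or the number of libraries limits the number of calls was not tested.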
